A study of Mus musculus with 10 samples.

Results

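The mouse genome holds a large set of genes that carry the provisional name Zfp (zinc finger protein) followed by a number. The set described here comprises the protein-coding genes whose symbol is exactly Zfp and a number and whose mean TPM (a length-scaled share of transcripts) over all 10 libraries was at least 1. There were 278 such members among 365 numbered protein-coding Zfp genes and 47311 genes in all. Another 9 numbered Zfp symbols are not protein-coding, and 8 of the 365 were listed at 0 in all libraries. The members nearest to the limit were Zfp457 at 1.003, Zfp229 at 1.005 and Zfp14 at 1.094 TPM, and the genes just below it were Zfp383 at 0.998, Zfp960 at 0.958 and Zfp286 at 0.936 TPM.

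Most proteins of this group bind DNA through runs of C2H2 zinc fingers, small loops in which a pair of cysteines and a pair of histidines hold a zinc ion. Many also carry a KRAB domain near the amino end, which recruits the corepressor TRIM28 and, through it, the histone H3 lysine 9 methyltransferase SETDB1. KRAB zinc finger genes have spread by tandem duplication, so they lie in clusters of similar genes, and many are known for silencing transposable elements. ASXL2 is a Polycomb-group related chromatin protein that forms a deubiquitinase complex with BAP1 and is needed for normal blood cell formation.

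The cells were lineage-negative, Kit-positive (Lin-Kit+) cells of mouse bone marrow, and their polyA RNA was measured. Cells positive for GFP were sorted and expanded in IMDM with 15% FBS, IL3, IL6 and SCF, which all groups share. The 5 groups of 2 libraries each had received an empty vector, ASXL2 of full length, or ASXL2 mutant 1, 2 or 3. The labels give no strain, age, vector, promoter or mutation, and do not say whether libraries came from separate cultures, so p-values speak only of the scatter among these libraries, which may be technical. The deposited data of 4 mutant libraries bear a mutant number in their names that differs from the label, and the batch differs as well for 2. The 6 mutant libraries were therefore pooled, and the batch was taken from the deposited names, with 5 libraries (1 empty vector, 1 full-length, 3 mutant) in each batch. If the mutant numbers in the labels hold, both libraries of mutant 1 fall in batch 1 and both of mutant 3 in batch 2.

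The libraries held between 52422686 and 79320702 estimated counts. Asxl2 itself, on chromosome 12, stood at 107 and 111 CPM (TMM-scaled counts relative to library size) with the empty vector, at 1384 and 992 CPM with the full-length construct, and at 790 to 1892 CPM (median 1031) with the mutants, without overlap between construct and control. Of the 10 mast cell and basophil markers checked, all 10 had a mean of at least 10 TPM, with a summed level of 53886 to 66803 TPM, while all 8 neutrophil markers were under 1 TPM. The 6 monocyte and macrophage markers summed to 74.6 to 90.7 TPM with the empty vector, 40.5 to 51.5 TPM with the full-length construct and 33.5 to 55.4 TPM with the mutants, with the defining gene Csf1r under 0.1 TPM. The 5 erythroid markers summed to 21.9 to 22.4 TPM with the empty vector, 11.5 to 12.6 TPM with the full-length construct and 14.001 to 38.2 TPM with the mutants. Of the 4 megakaryocyte markers 2 reached 10 TPM, and their sum was higher, at 968 to 1677 TPM over all libraries. The 6 stromal and endothelial markers summed to 158 to 213 TPM, with 1 at 10 TPM or more. All 6 lymphoid markers were under 1 TPM. The part of these marker differences in the member differences below was not tested. In bulk libraries, fewer cells of a type and less RNA per cell cannot be told apart.

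The members were mostly expressed at a low level, with a median mean TPM of 7.26 (quartiles 3.57 and 14.4), and 107 of 278 reached 10 TPM. On the TPM scale Zfp207, which encodes a kinetochore protein that binds BUB3, was the highest at a mean of 158 TPM. Zfp91, an E3 ubiquitin ligase of non-canonical NF-kB signalling, followed at 56.3 TPM, then Zfp422 at 53.8 TPM, Zfp787 at 53.5 TPM and Zfp106, an RNA-binding protein needed for motor neuron upkeep, at 51.5 TPM. Of these 5, Zfp106 alone passed a test between constructs. All 278 members passed the filter on low counts, so all were tested.

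Translation of the GENCODE coding sequences gave a median of 11 C2H2 fingers per member, up to 37 in Zfp142. A KRAB A box letter pattern, which misses divergent boxes, was found in 162 members and not in 116. Members with the pattern had a median of 12 fingers and a median mean level of 5.54 TPM, against 7 fingers and 13.6 TPM without it. In 8 members no match to the finger pattern was found; the pattern asks for fixed spacings, so a finger of another spacing is missed. These 8 include Zfp36 (tristetraprolin), a CCCH protein that binds AU-rich mRNA and hastens its decay. Zfp36 was measured at a log2 difference of 0.98 for the full-length construct (adjusted p = 0.299) and 0.32 for the mutants (adjusted p = 0.670), neither of which passed.

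Few members differed between the constructs, and the share that passed lay below that of all genes tested, a gap that was not tested. The first question was whether ASXL2 expression moves these genes. With full-length ASXL2 against the empty vector, 6 of 278 members passed at an adjusted p under 0.05 (3 higher, 3 lower; 2.16%), beside 5.07% of the 17810 genes tested (3.85% higher and 1.22% lower). With DESeq2 size factors in place of TMM the full-length split was 3 higher and 1 lower. With the pooled mutants against the same empty vector libraries, 20 members passed (13 higher, 7 lower; 7.19%), beside 10.8% of all genes tested (6.82% higher and 3.99% lower) and 14.3% of protein-coding genes with a mean of at least 1 TPM. The median log2 difference of the members was -0.06 for full-length and -0.03 for the mutants, beside -0.02 and -0.01 for all genes tested. In the mutants the median size of the difference was 0.09 for members and 0.11 for protein-coding genes of at least 1 TPM, and 2 members, Zfp467 and Zfp326, exceeded a 2-fold difference.

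These counts rest on fitting the batch as a block. For the alternatives below, the share of all genes that passed was not counted. Without a replicate block 0 members passed in either comparison, and with the batch given in the labels 0 passed for full-length and 1, Zfp9, for the mutants. Single libraries also decide them: for full-length the count was 0 without empty vector replicate 1 or full-length replicate 1, 1 without empty vector replicate 2, 2 without full-length replicate 2, and 3 without mutant 2 replicate 1 or mutant 3 replicate 2. For the mutants it was 5 without empty vector replicate 1, 9 without empty vector replicate 2, 10 without mutant 2 replicate 1 and 13 without mutant 3 replicate 2. Without the 4 libraries whose name and label disagree, 3 passed in each comparison: for the mutants these were Zfp467, Zfp9 and Zfp609. Over 20 alternatives the mutant call was kept 19 times for Zfp9, 18 for Zfp467, 17 for Zfp287 and Zfp609 and 16 for Zfp821, but 9 or fewer times for Zfp395, Zfp932, Zfp937, Zfp568, Zfp248 and Zfp326. The full-length call was kept 15 times for Zfp467, 14 for Zfp318, 10 for Zfp316, 6 for Zfp146 and 3 for Zfp639 and Zfp64.

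Among the members that passed, Zfp467, a multi-finger transcription factor known for favouring fat over bone cell fate, rose most. It lies on chromosome 6 (chr6:48427697-48445825, mm10, minus strand) and encodes 594 residues with 13 fingers. In batch 1 it stood at 12.8 CPM with the empty vector, 31.8 CPM with full-length ASXL2 and 34.99, 42.2 and 40.9 CPM in the mutant libraries. In batch 2 the values were 7.24 CPM with the empty vector, 12.7 CPM with full-length ASXL2 and 17.5, 25.9 and 22.3 CPM in the mutant libraries. The mutant libraries lay above both empty vector libraries, whereas the full-length library of batch 2 lay level with the empty vector library of batch 1. The log2 difference was 1.61 (SE 0.17, adjusted p = 0.000828) for the mutants and 1.08 (SE 0.20, adjusted p = 0.0151) for full-length.

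Zfp318 and Zfp316 were the other members that passed in both comparisons with the shared empty vector libraries. Zfp318, which in B cells governs read-through transcription from Ighm into Ighd, was at 15.4 and 12.8 CPM with the empty vector, 26.4 and 19.8 CPM with full-length ASXL2 and 14.3 to 24.1 CPM (median 18.9) with the mutants. Its full-length libraries lay above both empty vector libraries, and the mutants overlapped them when batches were not matched. The log2 difference was 0.71 (SE 0.12, adjusted p = 0.00638) for full-length and 0.43 (SE 0.10, adjusted p = 0.0181) for the mutants. Zfp316 was at 9.45 and 10.98 CPM with the empty vector, 12.8 and 14.7 CPM with full-length ASXL2 and 11.1 to 14.7 CPM (median 12.2) with the mutants. Its log2 difference was 0.43 (adjusted p = 0.0178) for full-length and 0.29 (adjusted p = 0.0291) for the mutants.

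The 3 members that fell with full-length ASXL2 did so by small amounts. Zfp64 was at 24.0 and 28.6 CPM with the empty vector and 20.4 and 22.9 CPM with full-length (log2 difference -0.28, SE 0.07, adjusted p = 0.0485). Zfp146 was at 52.1 and 62.8 CPM against 45.3 and 52.1 CPM (-0.24, SE 0.06, adjusted p = 0.0353). Zfp639 was at 33.3 and 33.6 CPM against 29.3 and 27.9 CPM (-0.22, SE 0.06, adjusted p = 0.0465). In the mutants Zfp639 stood at 31.01 to 33.6 CPM, and its difference from the empty vector of -0.05 did not pass (adjusted p = 0.585). Zfp639 overlaps the antisense gene Gm37592, and as no strand setting is stated, reads of the pair may be mixed.

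Among the members higher in the mutants, Zfp326, a partner of DBC1 in a complex that couples elongating polymerase to splicing, had the next largest difference on the lowest level. It was at 1.43 and 0.80 CPM with the empty vector, 2.61 and 2.24 CPM with full-length ASXL2 and 1.40 to 3.41 CPM (median 2.17) with the mutants. The mutant and empty vector libraries overlapped when batches were not matched, and the log2 difference was 1.05 (SE 0.29, adjusted p = 0.0404). With full-length ASXL2 both libraries lay above both empty vector libraries, and the log2 difference of 1.16 did not pass. Zfp287 was at 3.03 and 1.75 CPM with the empty vector and 3.79 to 5.09 CPM (median 4.27) with the mutants, with no overlap (0.90, SE 0.15, adjusted p = 0.00413). Zfp395 was at 31.6 and 21.5 CPM with the empty vector and 34.2 to 58.0 CPM (median 52.4) with the mutants (0.86, SE 0.22, adjusted p = 0.0452). Both were also higher with full-length ASXL2, by 0.51 for Zfp287 and 0.52 for Zfp395, which did not pass.

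Zfp821 was at 4.03 and 4.04 CPM with the empty vector, 7.01 and 5.84 CPM with full-length ASXL2 and 5.78 to 8.04 CPM (median 6.70) with the mutants (log2 difference 0.74, SE 0.15, adjusted p = 0.0103). Zfp810, a KRAB member on chromosome 9, was at 2.43 and 2.45 CPM with the empty vector and 2.76 to 4.53 CPM (median 3.92) with the mutants (0.66, SE 0.17, adjusted p = 0.0284). For both genes every mutant library lay above both empty vector libraries. The difference for full-length ASXL2 was 0.67 for Zfp821 (adjusted p = 0.0567) and 0.63 for Zfp810 (adjusted p = 0.0963), which did not pass. Zfp292, a large protein of 2698 residues, was at 45.2 and 41.5 CPM with the empty vector and 46.2 to 64.5 CPM (median 59.3) with the mutants (0.39, SE 0.07, adjusted p = 0.00656). The remaining pair that rose, Zfp358 and Zfp830, lie outside the rule for named genes and are given because the count was small: their log2 differences were 0.32 and 0.20.

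Among the 7 members lower in the mutants, Zfp609, a nuclear protein that binds the cohesin loader NIPBL and the Integrator complex, fell most. In batch 1 it was at 71.0 CPM with the empty vector, 59.0 CPM with full-length ASXL2 and 42.5, 49.4 and 42.7 CPM with the mutants. In batch 2 it was at 77.0 CPM with the empty vector, 64.9 CPM with full-length ASXL2 and 53.5, 64.0 and 50.9 CPM with the mutants. Every mutant library lay below both empty vector libraries, and the log2 difference was -0.56 (SE 0.09, adjusted p = 0.00494). The full-length difference of -0.26 did not pass (adjusted p = 0.265).

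Zfp106 was at 239 and 293 CPM with the empty vector and 195 to 248 CPM (median 210) with the mutants (log2 difference -0.29, SE 0.05, adjusted p = 0.00562), and it overlaps the antisense gene Gm26899, whose reads may be mixed with its own. Zfp217, a partner of the CoREST and LSD1 corepressors, was at 106 and 114 CPM against 88.3 to 99.0 CPM (-0.23, SE 0.05, adjusted p = 0.0190). Zfp568, the KRAB protein that represses a placental Igf2 transcript, was at 20.1 and 19.3 CPM against 16.2 to 17.8 CPM (-0.22, SE 0.06, adjusted p = 0.0399). The mutants lay below the empty vector without overlap for Zfp217 and Zfp568 and overlapped it for Zfp106.

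The other members that fell, Zfp976, Zfp937 and Zfp932, are KRAB genes with near copies. Only 64.5, 55.8 and 52.4% of their 31-base words, in that order, occur in no other gene of the index, so the sharing of reads between copies bears on their counts. Zfp976 was at 10.4 and 6.99 CPM with the empty vector and 4.86 to 8.21 CPM with the mutants (log2 difference -0.43, adjusted p = 0.0220). Zfp937 was at 6.89 and 6.42 CPM against 4.92 to 5.53 CPM (-0.36, adjusted p = 0.0337), and Zfp932 at 29.5 and 20.9 CPM against 16.7 to 25.5 CPM (-0.31, adjusted p = 0.0404). Among all members 15 had less than 50% of such words to themselves, and 0 of these passed in any construct comparison. With the 212 members of at least 90% own words the counts were 6 for full-length and 17 for the mutants.

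**Figure D1:**
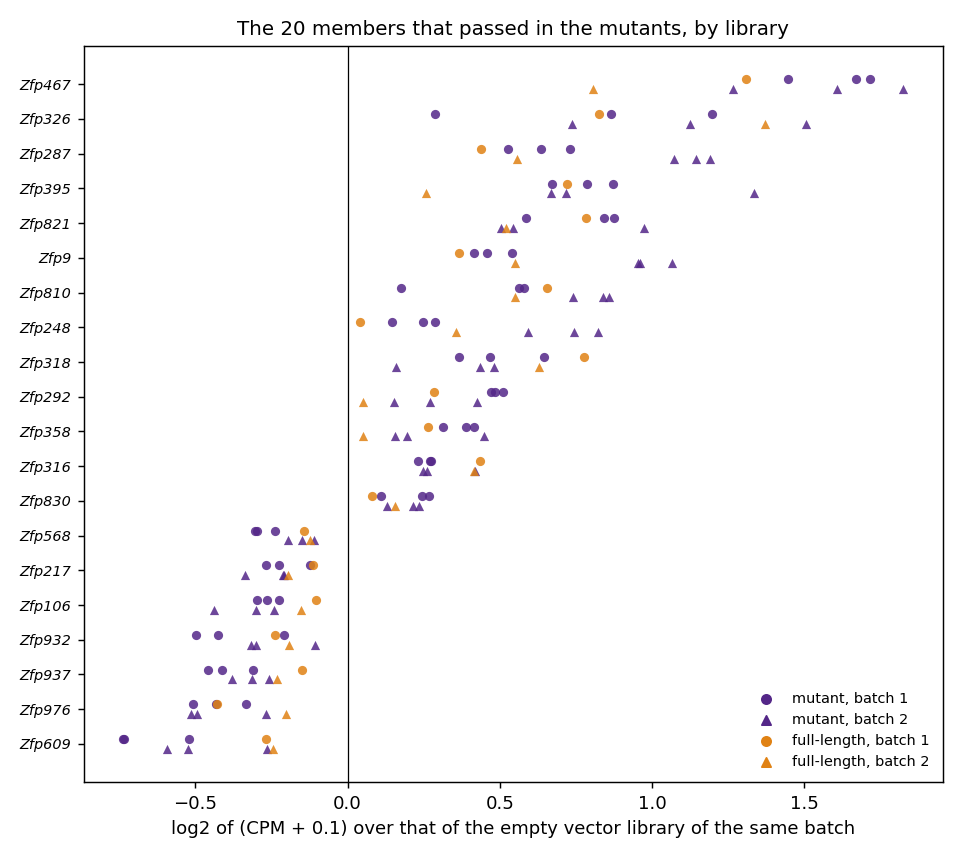
Each point is a mutant (purple) or full-length (orange) library; the x axis gives the log2 of its CPM + 0.1 over that of the empty vector library of the same batch (circles batch 1, triangles batch 2). The 20 were chosen by the test on these libraries; all their mutant points lie on 1 side of 0, as for 99.7% of all genes that passed, and 14 (70.0%) do not overlap the empty vector libraries when batches are ignored, beside 69.9% of all genes that passed and 14.4% of all genes tested.

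The mutant and empty vector libraries did not overlap, batches ignored, in 47 of 278 members (16.9%), beside 14.4% of all genes tested. Among the 20 members that passed this was so for 14 (70.0%), beside 69.9% of all genes that passed, and since passing chose these genes, it is a description only. Between the mutants and full-length ASXL2 no member passed (0 of 278, beside 0.399% of all genes tested, 0.185% higher and 0.213% lower), and DESeq2 called 4. At an unadjusted p under 0.05 there were 22 members, beside 2003 of the 17810 genes tested. The members with the smallest p were Zfp667 (log2 difference -0.51, SE 0.11, adjusted p = 0.0863), Zfp800 (0.17, SE 0.04, adjusted p = 0.134), Zfp639 (0.18, SE 0.05, adjusted p = 0.146), Zfp983 (0.29, SE 0.08, adjusted p = 0.161; 0.16 without full-length replicate 2) and Zfp131 (0.17, SE 0.05, adjusted p = 0.202), none of which passed. Zfp667 was at 9.65 and 12.3 CPM with full-length ASXL2 and 6.04 to 9.49 CPM with the mutants, with 7.97 and 11.5 CPM with the empty vector. Its mutant libraries lay below both full-length libraries.

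The next question was whether changed members lie together on the chromosomes. The 278 members lie on 20 chromosomes, with 73 on chromosome 7, 36 on chromosome 17, 26 on chromosome 13 and 20 on chromosome 2. The first 3 of these hold 135 members (48.6%), of which 3 passed in the mutants (2.22%), against 17 of the 143 elsewhere (11.9%). Of all genes tested, 9.84% passed on these 3 chromosomes and 11.01% on the others. The 20 members that passed lie on 10 chromosomes with at most 3 on any of them. Chromosome 2 had 3, all lower (Zfp106, Zfp937 and Zfp217, at least 19.9 Mb apart). Chromosome 6 had 3, all higher (Zfp467, Zfp9 and Zfp248), and chromosome 5 had 3 (Zfp326 and Zfp316 higher, Zfp932 lower). These were 3 of 20 members on chromosome 2 (15%), 3 of 15 on chromosome 6 (20%) and 3 of 14 on chromosome 5 (21.4%). Of all genes tested there 9.74, 10.7 and 8.46% passed, in that order. The 3 chromosomes were picked for their counts, and the differences were not tested. None of the 26 members on chromosome 13 passed, beside 60 of all 591 genes tested there (10.2%). The 6 that passed with full-length ASXL2 lie on 6 chromosomes.

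**Figure D2:**
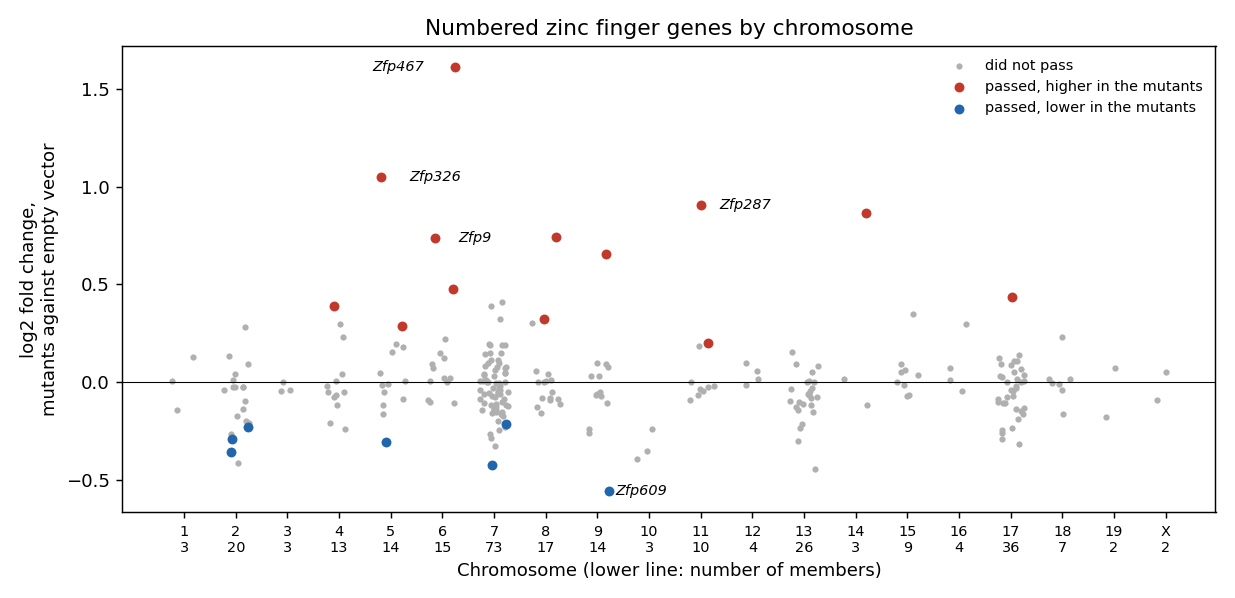
Each point is a member, placed by chromosome (x axis, with the number of members below) and by its log2 fold change in the pooled mutants against the empty vector (y axis); horizontal position within a chromosome is random. Red points passed higher and blue points lower; chromosomes 7, 17 and 13 hold 135 members and 3 of the 20 that passed.

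Runs of at least 3 members with neighbouring starts at most 0.5 Mb apart gave 26 clusters with 164 members, 126 of them with the KRAB pattern. Of the clustered members 5 passed in the mutants (3.05%; 2 higher, 3 lower), each in a different cluster, against 15 of the 114 outside (13.2%; 11 higher, 4 lower), beside 10.8% of all genes tested. No test of this difference was made, and the sets also differ in level, with a median mean TPM of 6.02 inside and 11.7 outside. Among members of at least 10 TPM, 1 of 44 inside and 7 of 63 outside passed; among those below 10 TPM, 4 of 120 inside and 8 of 51 outside passed. With DESeq2, for which the share of all genes that passed was not counted, the clustered count was 13 (2 higher, 11 lower), against 19 outside. It was 0 without the block, 1 without empty vector replicate 1 and 2 without empty vector replicate 2, mutant 2 replicate 1 or mutant 3 replicate 2.

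The largest cluster, with 21 members on chromosome 17 (chr17:21008903-23564238), held none that passed, and its log2 differences ran from -0.32 to 0.14 (median 0.00). The cluster of 17 members on chromosome 13 (chr13:67038596-67827002) also held none, with -0.24 to 0.15 (median -0.06). The cluster of 13 members on chromosome 7 (chr7:29768552-30169750) held Zfp568, lower in the mutants, and Zfp146, lower with full-length ASXL2. Zfp467 lies in a cluster of 8 on chromosome 6, where the nearest member, Zfp775, differed by 0.12 (adjusted p = 0.609). Zfp810 lies 0.051 Mb from Zfp809, known for silencing murine leukaemia proviruses through TRIM28, which differed by -0.07 (adjusted p = 0.691).

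In 5 of the 26 clusters every member had a log2 difference below 0 in the mutants, in 0 every member was above 0, and in 20 the median was below 0. With full-length ASXL2, compared with the same empty vector libraries, these numbers were 7, 0 and 23. The lowest cluster median was that of Zfp433, Zfp873 and Zfp938 on chromosome 10, chosen after its values were seen. The 3 genes differed by -0.24, -0.39 and -0.35 in the mutants, with adjusted p of 0.128, 0.0561 and 0.0803, so none passed. Over all genes tested, 8702 of 17810 had a difference above 0 in the mutants, and over the members 117 of 278. With full-length ASXL2 the numbers above 0 were 8231 of 17810 and 84 of 278. Inside clusters 63 of 164 members lay above 0 in the mutants and 44 with full-length ASXL2. Outside clusters 54 and 40 of 114 members did, in that order.

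Zfp9 and Zfp248 were the only members that passed in the same comparison within 0.5 Mb of each other. Both are KRAB genes on the minus strand of chromosome 6, at chr6:118461950-118479320 and chr6:118427319-118455528 (mm10), with starts 34.6 kb apart, and both rose in the mutants. They form a pair and not a cluster under the rule of 3. The coding sequence of a finger from each is shown with a finger of Zfp467, a member without the KRAB pattern from elsewhere on chromosome 6. Each is the first match in its protein with 2 residues between the cysteines and 3 between the histidines. The fingers were not matched by position, so their identity does not measure how closely the genes are related. The capitals mark the codons of the cysteine pair and the histidine pair that hold the zinc ion, read from the GENCODE M21 transcripts.
Zfp9: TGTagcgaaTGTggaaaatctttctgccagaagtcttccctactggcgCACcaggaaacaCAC
Zfp248: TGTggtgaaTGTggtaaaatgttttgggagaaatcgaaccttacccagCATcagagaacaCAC
Zfp467: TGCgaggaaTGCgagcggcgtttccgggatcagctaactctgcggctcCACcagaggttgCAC

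Each finger spans 63 bases, and the Zfp9 finger was identical to that of Zfp248 at 41 and to that of Zfp467 at 30 of them. Over the whole transcripts 97.3% of the 31-base words of Zfp9 and 99.2% of those of Zfp248 occur in no other gene. In batch 1 Zfp9 stood at 7.31 CPM with the empty vector, 9.44 CPM with full-length ASXL2 and 10.7, 10.1 and 9.77 CPM with the mutants. In batch 2 it was at 4.92 CPM with the empty vector, 7.24 CPM with full-length ASXL2 and 9.63, 10.4 and 9.67 CPM with the mutants. All mutant libraries lay above both empty vector and both full-length libraries (log2 difference from the empty vector 0.74, SE 0.12, adjusted p = 0.00386). The full-length difference of 0.46 did not pass (adjusted p = 0.101).

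Zfp248 was at 5.46 and 3.56 CPM with the empty vector, 5.62 and 4.59 CPM with full-length ASXL2, and 5.42 to 6.69 CPM (median 6.22) with the mutants. Its lowest mutant library, in batch 2, lay just below the empty vector library of batch 1. The log2 difference was 0.48 (SE 0.13, adjusted p = 0.0392) for the mutants and 0.19 (adjusted p = 0.555) for full-length. Without empty vector replicate 2 the Zfp248 mutant difference was 0.27 (adjusted p = 0.325), and without empty vector replicate 1 it was 0.71 (adjusted p = 0.0415). Zfp248 kept its call in 7 of 20 alternatives and Zfp9 in 19, so the neighbouring pair rests on the weaker of the calls.

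Members with and without the KRAB pattern both held genes that passed. Of the 162 KRAB members 8 passed in the mutants (4.94%; 4 higher, 4 lower), and of the 116 others 12 passed (10.3%; 9 higher, 3 lower), beside 10.8% of all genes. The median log2 difference was -0.06 with the pattern and 0.00 without it. With full-length ASXL2 1 KRAB member (Zfp316, 0.62%) and 5 of the others (4.31%) passed, beside 5.07% of all genes tested. Of the members with 1 to 5 fingers 7 of 43 passed in the mutants, and of those with 6 or more 13 of 227.

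The proteins that KRAB zinc fingers recruit were read from a list of 37 genes of the TRIM28 and H3 lysine 9 methylation machinery, of which 35 were tested. With full-length ASXL2 0 passed, beside 5.07% of all genes tested. An unadjusted p under 0.05 was found for 2 of the 35, beside 3385 of all 17810 genes tested. In the mutants 2 passed (5.71%, beside 10.8% of all genes tested), both lower (3.99% of all genes): Dnmt1, the maintenance DNA methyltransferase, and Morc2a, an ATPase of HUSH silencing. Dnmt1 was at 255 and 252 CPM with the empty vector and 193 to 246 CPM with the mutants (log2 difference -0.23, SE 0.07, adjusted p = 0.0451), and Morc2a at 85.04 and 91.3 CPM against 72.6 to 86.3 CPM (-0.16, SE 0.04, adjusted p = 0.0417). Dnmt1 kept its call in 10 and Morc2a in 8 of 20 alternatives, and without empty vector replicate 1 Dnmt1 differed by -0.12 (adjusted p = 0.556). Trim28 differed by -0.18 (adjusted p = 0.0552), Setdb1 by -0.15 (adjusted p = 0.0675) and Suv39h1 by -0.23 (adjusted p = 0.0695), which did not pass. Between the mutants and full-length ASXL2 0 of the 35 passed, beside 0.399% of all genes tested. Chd4 had the smallest p there (log2 difference -0.16, adjusted p = 0.177), and it differed by 0.13 for full-length against the empty vector (adjusted p = 0.240). The list median was -0.03 in the mutants against the empty vector, with 11 of the 35 genes above 0. Among related families of at least 1 TPM, 5 of 31 Zbtb genes, 1 of 16 Zscan and Zkscan genes and 3 of 17 Klf and Sp genes passed in the mutants, beside 10.8% of all genes tested and 14.3% of protein-coding genes of at least 1 TPM.

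**Figure D3:**
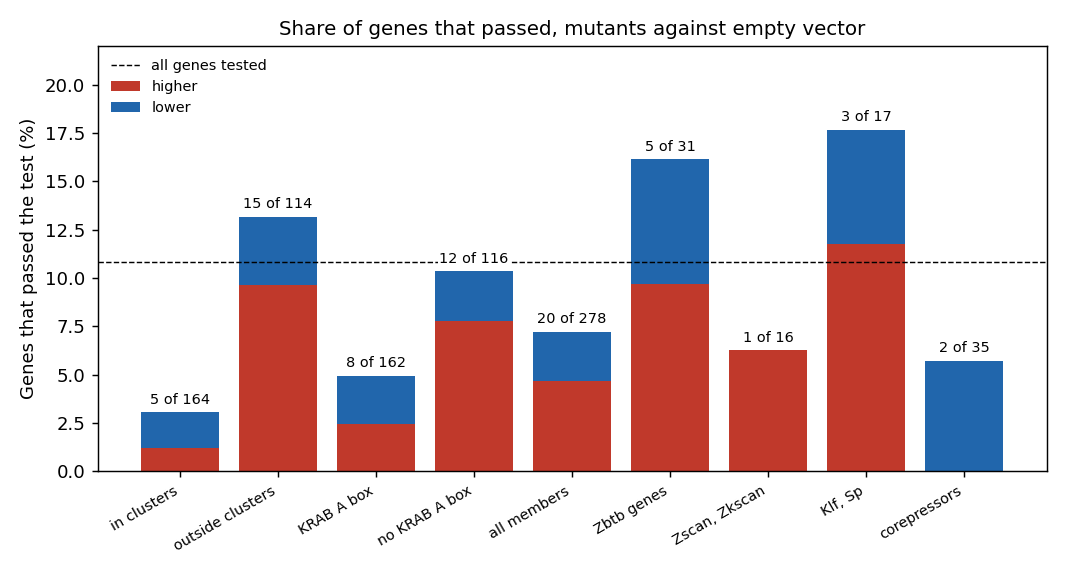
Bars give the percentage of genes in each set that passed in the mutants against the empty vector, split into higher (red) and lower (blue), with the numbers above; the dashed line is the 10.8% of all genes tested. Members inside clusters (5 of 164) lie below members outside (15 of 114); the sets differ in level, and the difference was not tested.

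More members passed between batches than between constructs. By the labels, batch 1 held the mutant 1 libraries and batch 2 the mutant 3 libraries. Batch differences and differences between these mutants can therefore not be fully told apart. Between the batches, 121 of 278 members passed (40 higher and 81 lower in batch 2; 43.5%), beside 52.4% of all genes tested (26.6% higher and 25.9% lower). For 176 members the batch difference was larger in size than the mutant difference, and 10 of the 20 members that passed in the mutants also passed between batches. The summed TPM of the members was 3188 to 3608 in batch 1 and 2736 to 3162 in batch 2, without overlap. The members with the extreme values, chosen after they were seen, were Zfp503 and Zfp329. Zfp503, a corepressor of striatal and limb development, was at 2.66 to 3.11 CPM in batch 1 and 13.5 to 41.4 CPM in batch 2 (log2 difference 2.99, adjusted p = 0.000112). Zfp329 was at 32.0 to 36.6 CPM in batch 1 and 15.5 to 19.6 CPM in batch 2 (-0.94, adjusted p = 6.95e-06). A further test asked whether the difference between all construct libraries, full-length and mutant together, and the empty vector varies between batches. It called 0 genes of all (1329 at an unadjusted p under 0.05) and 0 members (8 unadjusted). As each batch held 1 empty vector library, this test cannot decide whether the differences were alike in both batches.

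**Figure D4:**
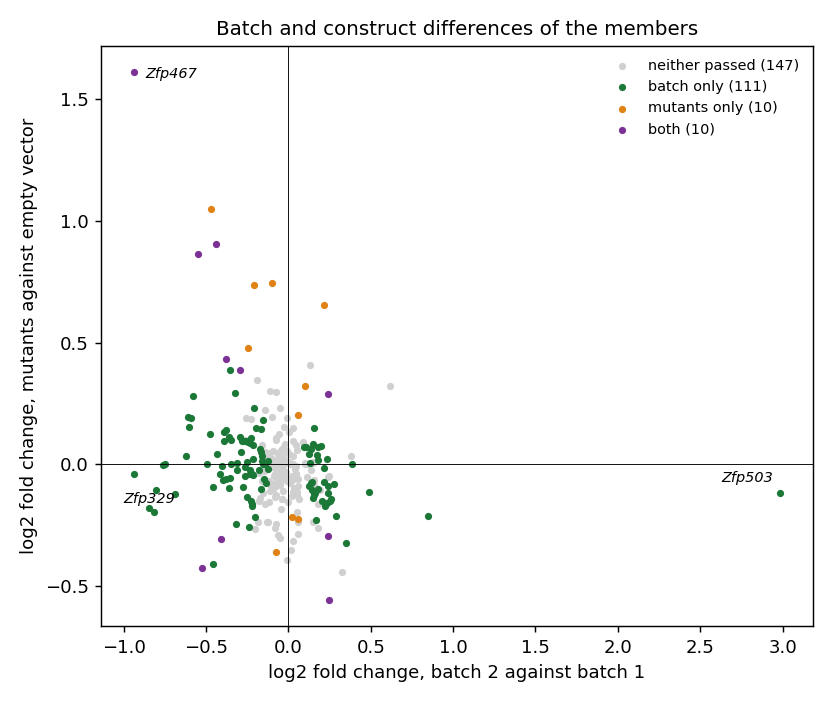
Each point is a member, placed by its log2 fold change between batches (x axis, batch 2 against batch 1) and between the pooled mutants and the empty vector (y axis); colours show which of the comparisons it passed. Of the 278 members 111 passed between batches only, 10 in the mutants only, 10 in both and 147 in neither.

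RefSeq promoters (GRCm38.p6) were found for 234 members, with 280 start sites, and short motifs were sought on both strands in the 250 bases before each start. The ETS core CCGGAAG was present in 17.9% of the member promoters and 6.91% of all 32841 promoters, CCAAT in 47.9 and 33.9%, the GC box GGGCGG in 42.9 and 32.7%, and TATAA in 11.1 and 22.8%. Of the 19 promoters of the 15 matched members that passed in the mutants, 12 held the CCAAT box, 12 the GC box, 2 the ETS core and 1 the TATA motif. A match is a description of the letters and not a binding site. The window of a member that rose, Zfp287 (chr11:62731897-62732146, minus strand), and of a member that fell, Zfp106 (chr2:120563860-120564109, minus strand), are shown 5′ to 3′, with the CCAAT and GC box letters or their reverse complements in capitals.
Zfp287: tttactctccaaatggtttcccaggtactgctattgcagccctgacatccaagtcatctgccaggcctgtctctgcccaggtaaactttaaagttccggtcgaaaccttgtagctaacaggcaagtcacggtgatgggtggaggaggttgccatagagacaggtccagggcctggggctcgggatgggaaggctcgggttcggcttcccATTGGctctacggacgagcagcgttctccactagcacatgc
Zfp106: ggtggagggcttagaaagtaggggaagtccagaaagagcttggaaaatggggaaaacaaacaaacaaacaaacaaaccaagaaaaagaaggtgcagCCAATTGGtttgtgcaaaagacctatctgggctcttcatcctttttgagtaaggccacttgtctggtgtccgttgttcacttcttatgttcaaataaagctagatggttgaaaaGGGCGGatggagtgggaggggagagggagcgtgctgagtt

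The Zfp287 window held 9 CpG sites and 55.6% G and C, and the Zfp106 window 3 CpG sites and 45.6%. Both windows held the CCAAT box, and that of Zfp106, which fell, also held the GC box.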

How the data were processed

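Members, lists and comparisons were chosen with earlier results of these data known. Per the file headers, the deposited tables give an estimated count and a TPM value per transcript in the column names kallisto writes; per the submitters' processing notes the authors used kallisto and DESeq2 and the build mm10, with no version or role. Index and strand setting: not given in the sources used here. Of 115088 transcripts 114200 (99.2%) were matched to GENCODE M21 (GRCm38) and summed per gene, and the estimated counts were rounded. They carried 99.3 to 99.6% of each library's counts.

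edgeR 4.0.16 in R 4.3.3 (robust quasi-likelihood, TMM, default filter with a minimum count of 10, Benjamini-Hochberg over 17810 genes) was fitted to all 10 libraries in 3 classes with the batch in the deposited names as block. The labels also tie replicate numbers to batches, and that pairing, which differs for 2 libraries, was an alternative. Deviations of same-numbered libraries correlated at 0.491 to 0.578 among the empty vector, full-length and mutant 2 groups and at -0.145 to 0.017 in the other 7 pairs of groups. By the deposited names, the empty vector, full-length and mutant 2 groups each have their libraries in different batches. Mutant 1 and mutant 3, as labelled, each have theirs in the same batch. Alternatives were DESeq2 1.42.0 and limma 3.58.1 on log2(TPM + 1), on which low genes change less, with other blocks, filters and left-out libraries. The scripts were tested on simulated counts.

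Named members are, per comparison, up to 10 with the largest rise and 10 with the largest fall among those that passed (with under 5, the 5 smallest p), the 5 highest in TPM, Trim28, Setdb1, the corepressor genes with the smallest p, and Asxl2. Finger and KRAB patterns were read from translated GENCODE coding sequences (finger: C, 2 to 4 residues, C, 12 residues, H, 3 to 5 residues, H). Python 3.11.15, pandas 2.3.3 and matplotlib 3.10.9 made tables and figures. The level of a further marker gene is not reported here.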

Additional observations from a re-analysis of the deposited data

How the results depend on the processing

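The counts of members that passed were 6 for full-length ASXL2, 20 for the mutants, 0 between them and 5 in clusters. Without a replicate block they were 0, 0, 0 and 0, and with the batch in the labels as replicate block 0, 1, 0 and 0. DESeq2 gave 13, 32, 4 and 13. Its 32 in the mutants were 16 higher and 16 lower and held all 20 that edgeR called. The share of all genes that passed was not counted for DESeq2 or the other alternatives. A change in the members therefore cannot be told from a change in all genes. The fits on log2(TPM + 1) and log2(TPM + 0.1) each gave 1, 6, 0 and 1. Without a filter on low counts the numbers were 5, 17, 1 and 3. With only the libraries compared, full-length gave 3. Without the 4 libraries whose name and label disagree they were 3, 3, 0 and 1. Leaving out each library in turn gave 0 to 9 for full-length, 5 to 20 for the mutants, 0 to 1 between them and 1 to 7 in clusters. With members of at least 90% own 31-base words, which was chosen after seeing the data, the clusters gave 3. Apart from the alternative itself testing fewer genes or libraries, the cause of these changes was not tested. None of the 28 member differences rerun, those of the members named for a comparison, changed direction in 20 alternatives. These members were chosen on the same libraries that the alternatives reuse, so a kept direction is a description only. Asxl2 between mutants and full-length, at -0.01, turned to 0.016 without a replicate block and 0.023 with that of the labels, and lay between -0.13 and 0.044 with a library left out. With 2 libraries of the empty vector and of full-length ASXL2 and members at a median of 7.26 TPM, small differences could be missed.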
